A study of Mus musculus with 16 samples.

Results

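Secreted and extracellular genes made up 57 probes, for 51 genes, among the 932 probes that the authors' deposited comparison tables list for testes overexpressing a Musashi protein. The probes were those of either table whose Gene Ontology component field holds the extracellular region term and not the mitochondrion term. That gave 76 probes, and 19 of them were left out by name (kallikreins, members of the Serpina and cystatin families, complement components and single genes such as Timp1, Lcn2 and Insl3). Of the 57, 49 probes (43 genes) were listed for TgMsi2 and 8 for TgMsi1, with 0 listed in both. The arrays hold 25697 probes. Every probe in the TgMsi2 table has a fold of at least 1.5, and every probe in the TgMsi1 table a fold of at least 1.2. Each has an unadjusted p below 0.05 as the authors computed it. The measured difference of its own line therefore chose each probe, and that difference is given below as a description.

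RNA of whole testes was hybridised to 16 Illumina bead arrays in 4 groups of 4, all from B6xCBA mice aged 3 months. TgMsi1 mice carry a Musashi-1 transgene and TgMsi2 mice a Musashi-2 transgene, both described as testis-specific. Wt(TgMsi1) and Wt(TgMsi2) are the wild-type littermates of each line. The sources used here do not give the promoter that drives either transgene, the cells in which it acts or the number of founder lines. Nothing in the labels says that the 4 arrays of a group are from different mice, so the p-values speak only of the spread among these samples, and that spread may be technical. Neither comparison table names a probe for Msi1 or Msi2, so the transgene itself was not checked. Testis markers in the tables were well above the median of all probes on an array (log2 7.83): the spermatid genes Gapdhs and Prm3 read from 13.35 to 14.09 and from 10.29 to 12.65 over the 16 arrays, and the Leydig cell hormone Insl3 from 12.47 to 14.10. Values are log2 signals throughout.

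Musashi proteins bind RNA and control the translation and stability of the transcripts they bind. The testis depends on secreted proteins: Sertoli cells, which nurse the germ cells, release carrier proteins, protease inhibitors and growth factors into the tubule, peritubular myoid cells build the collagen and proteoglycan layer around it, and interstitial cells and blood vessels lie outside. Germ cells make secreted proteins of their own, among them peptidases and lipases that end up in or on the sperm. In whole testis, fewer cells of a type and less RNA per cell cannot be told apart.

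The stretches upstream of 6 member genes are shown as examples, chosen after their values were seen: Htra1 and Prss35 for higher proteases, Timp2 for a higher inhibitor, Hapln2 for a lower matrix gene, Cpa5 for a lower protease, and Pon2 as the gene listed for TgMsi1 that was also called in TgMsi2. Each is the 250 bases before the gene's start in RefSeq on build GRCm38.p6, written 5′ to 3′ on the strand of the gene. Capitals mark the letters TGACG, the core of the cAMP response element that CREM and CREB proteins bind, and GGGCGG, the GC box bound by Sp1 family proteins, on either strand (read as CGTCA and CCGCCC on the other strand).
Htra1 (chr7:130935953-130936202, plus strand, higher in TgMsi2): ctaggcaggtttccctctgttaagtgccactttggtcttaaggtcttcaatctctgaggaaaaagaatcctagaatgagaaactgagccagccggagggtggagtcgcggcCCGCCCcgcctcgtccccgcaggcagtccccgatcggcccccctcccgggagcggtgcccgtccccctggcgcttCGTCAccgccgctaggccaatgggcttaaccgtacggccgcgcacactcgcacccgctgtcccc
Prss35 (chr9:86743383-86743632, plus strand, higher in TgMsi2): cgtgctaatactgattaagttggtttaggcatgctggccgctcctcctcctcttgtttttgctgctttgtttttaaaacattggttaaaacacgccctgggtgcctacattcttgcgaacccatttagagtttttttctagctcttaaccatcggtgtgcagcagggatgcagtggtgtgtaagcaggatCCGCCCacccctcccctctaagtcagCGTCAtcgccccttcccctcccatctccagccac
Timp2 (chr11:118355412-118355661, minus strand, higher in TgMsi2): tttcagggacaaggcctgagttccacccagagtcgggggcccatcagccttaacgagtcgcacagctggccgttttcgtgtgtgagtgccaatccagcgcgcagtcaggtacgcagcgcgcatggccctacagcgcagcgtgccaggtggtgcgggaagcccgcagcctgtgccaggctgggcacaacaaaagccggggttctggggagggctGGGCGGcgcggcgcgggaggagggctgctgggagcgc
Hapln2 (chr3:88027512-88027761, minus strand, lower in TgMsi2): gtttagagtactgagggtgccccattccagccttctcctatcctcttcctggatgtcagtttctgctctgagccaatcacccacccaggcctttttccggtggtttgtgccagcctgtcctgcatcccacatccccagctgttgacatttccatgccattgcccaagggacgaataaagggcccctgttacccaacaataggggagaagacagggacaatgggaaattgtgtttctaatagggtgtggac
Cpa5 (chr6:30610760-30611009, plus strand, lower in TgMsi2): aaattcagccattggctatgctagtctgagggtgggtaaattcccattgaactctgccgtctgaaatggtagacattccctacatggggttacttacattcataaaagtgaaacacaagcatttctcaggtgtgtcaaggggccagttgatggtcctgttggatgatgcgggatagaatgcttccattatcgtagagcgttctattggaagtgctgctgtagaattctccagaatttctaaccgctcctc
Pon2 (chr6:5298341-5298590, minus strand, lower in TgMsi1): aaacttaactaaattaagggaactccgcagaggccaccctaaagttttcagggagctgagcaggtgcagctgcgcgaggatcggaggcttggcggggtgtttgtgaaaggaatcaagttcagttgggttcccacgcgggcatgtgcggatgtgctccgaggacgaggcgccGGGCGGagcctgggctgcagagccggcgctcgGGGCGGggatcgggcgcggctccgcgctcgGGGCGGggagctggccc

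The promoter table held 39 windows for 34 of the 51 genes. TGACG was present in 6 of 24 windows of genes listed as higher in TgMsi2 (25%) and in 1 of 9 windows of genes listed as lower (11.1%), against 17.8% of all 32851 windows of that length. GGGCGG was present in 9 of 24 (37.5%) and 1 of 9 (11.1%), against 32.7% of all windows. The full element TGACGTCA, which contains TGACG, was in 0 of the 39 windows and in 1.55% of all windows. Pon2 had 3 GC boxes in its window, Htra1 and Prss35 had 1 of each set of letters, and Hapln2 and Cpa5 had neither. These are matches of letters only.

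In TgMsi2 testes, 36 probes (30 genes) were listed as higher and 13 probes (13 genes) as lower. By role, the higher probes were 10 for matrix proteins, 7 for protease inhibitors, 5 for secreted signals, 4 each for carriers and lipid enzymes, proteases, and defence or gland proteins, and 2 others. The log2 difference from Wt(TgMsi2) ran from 0.61 to 1.22 among the higher probes, with a median of 0.78, and from -1.23 to -0.59 among the lower ones, with a median of -0.68. In limma, 40 of the 49 had an adjusted p under 0.05 beside 11.5% of all probes: 30 of the 36 higher ones, beside 6.2%, and 10 of the 13 lower ones, beside 5.32%. All 4 TgMsi2 arrays lay to 1 side of all 4 Wt(TgMsi2) arrays in 36 of the 49, beside 16% of all probes, with 25 of the 36 above (7.6%) and 11 of the 13 below (8.42%). In the fit of only the 10831 probes with a mean log2 above 8, which kept all 49, 30.6% of the probes fitted were called. Because this comparison chose the probes, nothing is read from these counts. Apart from the clone 4930486L24Rik, the largest positive differences were those of Serping1, Apoc1 and Prss35, and the most negative those of Gdf9, Hapln2 and Npb.

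The 4 TgMsi2 arrays did not contribute equally. Arrays 1 and 3 were both further from wild type than arrays 2 and 4 in 27 of the 36 higher probes and in 9 of the 13 lower ones. The mean over the 36 higher probes, relative to the Wt(TgMsi2) mean, was 1.08, 0.66, 1.03 and 0.57 on TgMsi2 arrays 1 to 4, and that over the 13 lower probes was -1.08, -0.65, -0.87 and -0.64. On the Wt(TgMsi2) arrays these means ran from -0.17 to 0.22 and from -0.13 to 0.07. Of the 40 called probes, 28 kept the call in each fit that left out 1 array, and 12 lost the call in at least 1 such fit: Apoc1 probe 2, Ccdc70, Dcn probe 2, Defb36 probe 1, Igfbp7, Mgp, Nenf, Selenop probe 2, Serpinf1, Svs5, Timp2 and Trh. Of the 12, 11 lost it without TgMsi2 array 3 and 12 without array 1. All of the 12 but Igfbp7 and Mgp also lost it without at least 1 of the Wt(TgMsi2) arrays. Calls also fell over all probes, from 11.5% to 5.58% without TgMsi2 array 3 and to 5.08% without TgMsi2 array 1. They fell to 7% without Wt(TgMsi2) array 3 and to 6.93% without Wt(TgMsi2) array 4. With the line's own 8 arrays fitted alone, 8 of the 40 lost the call, and 8.83% of all probes were called. With both TgMsi2 arrays 1 and 3 left out, a setting chosen after seeing the data, 8 of the 49 were called (both Htra1 probes, 4930486L24Rik, Hapln2, Lipf, Tgfbi, Npb and Gdf9) and 201 of all probes, where the full set gave 2960.

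Structural proteins of the matrix formed the largest set of genes, with 10 higher probes (8 genes) and 2 lower ones. Sparc, a collagen-binding glycoprotein, had the brightest probe of the set. Sparc probe 1 read 12.73, 12.78, 12.22 and 12.66 on the Wt(TgMsi2) arrays and 13.84, 13.35, 13.98 and 13.27 on the TgMsi2 arrays. The TgMsi2 arrays were all above wild type, with arrays 1 and 3 highest, and the log2 difference was 1.02 (SE 0.22), or 2.02-fold. Its probe 2, dimmer at 10.72 ± 0.07 (SD, n = 4) in Wt(TgMsi2), gave 1.00 (SE 0.17). Dcn (decorin), a small leucine-rich proteoglycan that binds collagen fibrils and TGF-beta, was also read by a probe pair. Dcn probe 1 read 11.95, 11.91, 11.59 and 11.37 in Wt(TgMsi2) and 13.05, 12.36, 12.60 and 12.48 in TgMsi2. The groups did not overlap, and both probes agreed in sign and size, with 0.92 (SE 0.19) for probe 1 and 0.79 (SE 0.21) for probe 2. Prelp, a related proteoglycan, read 9.11, 9.0, 8.67 and 8.87 against 9.93, 9.51, 10.33 and 9.81, a difference of 0.98 (SE 0.19) with array 3 highest. Ogn (osteoglycin), of the same family, read 9.52, 9.49, 8.51 and 9.39 against 10.55, 9.98, 9.63 and 9.45. Its groups overlapped, since TgMsi2 array 4 lay below 2 of the wild-type arrays, and its difference of 0.67 (SE 0.26) was not called.

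Pcolce, which speeds the trimming of procollagen, read 9.50, 9.21, 8.73 and 9.19 in Wt(TgMsi2) and 10.38, 9.88, 10.37 and 9.99 in TgMsi2, a difference of 0.99 (SE 0.16). Mgp (matrix Gla protein), an inhibitor of calcification, read 10.01, 9.93, 9.81 and 9.64 against 10.93, 10.49, 11.15 and 10.46, a difference of 0.91 (SE 0.22). Both genes, and Olfml2b, a matrix protein of the olfactomedin family (0.78, SE 0.17), had TgMsi2 arrays all above wild type. Tgfbi, an integrin-binding protein that TGF-beta induces in many cells, read 9.74, 9.51, 9.95 and 9.55 in Wt(TgMsi2) and 10.27, 10.48, 10.41 and 10.29 in TgMsi2, a difference of 0.67 (SE 0.08). Its SD was 0.20 in Wt(TgMsi2) and 0.10 in TgMsi2 (n = 4 each), and the SE draws on all 16 arrays, the TgMsi1-line groups having SDs of 0.07 and 0.03. Here arrays 2 and 3 were highest, unlike the usual order. The lower matrix genes were Hapln2, a link protein known from hyaluronan-rich matrix in the brain, and Loxl1, which crosslinks elastin. Hapln2 read 9.58, 9.68, 9.68 and 9.78 in Wt(TgMsi2) and 8.26, 8.69, 8.49 and 8.69 in TgMsi2, so that every TgMsi2 array was below every wild-type array by more than the range within either group. Its log2 difference was -1.15 (SE 0.16), or 0.452-fold. Loxl1 read 10.13, 10.30, 10.12 and 10.43 against 9.46, 9.70, 9.45 and 9.99, without overlap, and differed by -0.59 (SE 0.10).

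On the arrays of the other line, Hapln2 read 9.15, 9.18, 9.67 and 9.42 in Wt(TgMsi1) and 9.30, 8.52, 9.24 and 9.09 in TgMsi1. Those groups overlapped, and TgMsi1 array 2 alone lay well below the rest.

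Proteases and protease-like proteins were split, with 4 higher probes (3 genes) and 3 lower ones. Prss35 belongs to the serine protease family but lacks the usual catalytic serine. It read 9.62, 9.60, 9.11 and 9.33 in Wt(TgMsi2) and 11.05, 10.31, 11.08 and 9.88 in TgMsi2. Arrays 1 and 3 were well above the other 2 TgMsi2 arrays, the groups did not overlap, and the difference was 1.17 (SE 0.23), or 2.24-fold. Htra1, a secreted serine protease that cleaves matrix proteins, had little spread. Htra1 probe 1 read 8.45, 8.38, 8.18 and 8.23 against 9.26, 8.96, 9.22 and 9.13, a difference of 0.84 (SE 0.09). Probe 2 gave 0.76 (SE 0.07), and for both probes the lowest TgMsi2 array was above the highest wild-type array. Adam23, a cell adhesion protein of the ADAM family without protease activity, was higher by 0.85 (SE 0.16), with array 3 at 9.34 and the other TgMsi2 arrays between 8.79 and 8.87.

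The lower members were Cpa5, Adam34l and Prss54, which are known as testis-expressed genes in the mouse. Cpa5, a carboxypeptidase, read 10.23, 10.19, 10.29 and 10.30 in Wt(TgMsi2) and 8.99, 9.36, 9.17 and 9.60 in TgMsi2. The wild-type arrays were nearly level, every TgMsi2 array was below them, and the difference was -0.98 (SE 0.20), or 0.508-fold. Adam34l, a testis ADAM, read 9.24, 8.96, 9.39 and 9.22 against 8.35, 8.67, 8.28 and 8.78, a difference of -0.68 (SE 0.13). Prss54 read 10.20, 10.29, 10.37 and 10.29 against 9.15, 10.07, 9.37 and 10.20. TgMsi2 array 4 lay below the lowest wild-type array by less than the rounding shows, and arrays 1 and 3 were far below. The difference of -0.59 (SE 0.19) was not called. Among the members, Prss54 was one of the 2 probes nearest the limit of the TgMsi2 table, with a ratio of 0.665 in the authors' deposited table. Loxl1, at 0.662, was the other.

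The members grouped as protease inhibitors were 7 probes for 7 genes, all higher in TgMsi2. All were called in the comparison that chose them, where 6.2% of all probes were called higher. The grouping does not show that each of these proteins inhibits a protease. The role was given after names were seen, Pros1 carries no inhibitor term in the tables, and Serpina genes, cystatins and Timp1 had been left out by name, so nothing is read from the count. The call was lost for Timp2 in 3 and for Serpinf1 in 4 of the fits without 1 array, and for Serpinf1 and Spink4 when the line's own 8 arrays were fitted alone. Serping1, the inhibitor of complement C1 proteases, read 9.83, 9.74, 9.41 and 9.61 in Wt(TgMsi2) and 10.99, 10.51, 11.10 and 10.71 in TgMsi2. The lowest TgMsi2 array was above the highest wild-type array, and the difference was 1.18 (SE 0.20), or 2.27-fold. Cstdc1, a protein with a cystatin domain (cystatins inhibit cysteine proteases), read 10.19, 9.94, 10.14 and 10.25 against 11, 11.28, 11.59 and 10.78, a difference of 1.03 (SE 0.18). Timp2, an inhibitor of matrix metalloproteinases, read 11.70, 11.44, 11.01 and 11.37 against 12.80, 12, 12.57 and 11.85. Its arrays 1 and 3 were again the high ones, and the difference was 0.93 (SE 0.22). Serpinf1 (PEDF), a serpin that acts against vessel growth, differed by 0.74 (SE 0.19), and Wfdc1, of the whey acidic protein family, by 0.71 (SE 0.12). Wfdc1 had little spread in either group, from 9.65 to 9.84 in Wt(TgMsi2) and from 10.30 to 10.59 in TgMsi2. Pros1 (protein S), an anticoagulant that is also a ligand by which Sertoli cells recognise dying germ cells, read 10.05, 9.94, 10.03 and 9.80 against 10.85, 10.33, 10.78 and 10.46, a difference of 0.65 (SE 0.12). Spink4, a Kazal-type inhibitor, had the smallest difference of the higher probes, 0.61 (SE 0.14), and its groups overlapped, because TgMsi2 array 4 (8.46) lay just under Wt(TgMsi2) array 1 (8.47).

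Among secreted signals and their binding proteins, 5 probes were higher and 2 lower. The lower pair had the largest differences. Gdf9, a TGF-beta family growth factor best known from the oocyte and also expressed in rodent male germ cells, read 10.22, 10.39, 10.21 and 10.51 in Wt(TgMsi2) and 8.82, 9.19, 9.19 and 9.23 in TgMsi2. No TgMsi2 array came near wild type, array 1 was lowest, and the difference of -1.23 (SE 0.18), or 0.427-fold, was the most negative among the members. Npb (neuropeptide B), the precursor of a peptide ligand of G protein-coupled receptors, read 9.69, 9.66, 9.85 and 9.70 against 8.55, 8.74, 8.53 and 8.69. Its SD was 0.09 in Wt(TgMsi2) and 0.10 in TgMsi2 (n = 4 each), the groups were far apart, and the difference was -1.10 (SE 0.14). Of the higher signals, Igfbp7, which binds insulin-like growth factors, was the brightest, at 12.58, 12.24, 12.28 and 12.06 against 13.30, 12.90, 13.26 and 12.53. Its groups overlapped by 1 array on each side, with a difference of 0.71 (SE 0.16). Nenf (neudesin), a secreted neurotrophic factor, differed by 0.74 (SE 0.20) and Trh, the precursor of thyrotropin-releasing hormone, by 0.68 (SE 0.19). Trh was close to the median of all probes in wild type, from 7.77 to 8.05.

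Shbg encodes the androgen-binding protein that Sertoli cells of rodents secrete. It read 8.36, 7.76, 8.86 and 8.53 in Wt(TgMsi2) and 9.25, 8.24, 9.48 and 9.44 in TgMsi2. TgMsi2 array 2 lay inside the wild-type range, and the difference of 0.72 (SE 0.25) was not called. Cxcl12, a chemokine that holds stem and immune cells in their niches, read 9.26, 9.34, 8.45 and 9.24 against 10.06, 9.52, 10.10 and 9.20. Wt(TgMsi2) array 3 stood apart at the low end, TgMsi2 array 4 lay within the wild-type range, and the difference of 0.65 (SE 0.21) was not called.

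Carriers and enzymes of lipid metabolism included Apoc1, an apolipoprotein that inhibits lipoprotein uptake. Apoc1 probe 1 read 11.40, 10.38, 10.25 and 10.56 in Wt(TgMsi2) and 12.43, 11.66, 11.80 and 11.43 in TgMsi2. Array 1 was the highest in both groups, the lowest TgMsi2 array was only just above the highest wild-type array, and the difference was 1.18 (SE 0.24), or 2.26-fold. Probe 2 gave 0.88 (SE 0.23) with overlapping groups. Selenop, the selenium transport protein, had a difference of 0.69 (SE 0.18) at probe 2 and 0.65 (SE 0.24) at probe 1, and only probe 2 was called. That call was lost with the line's own 8 arrays (limma adjusted p = 0.0849) and without TgMsi2 array 1 or 3 or Wt(TgMsi2) array 2 or 4, so the probes are not shown to differ. Lipf, a secreted acid lipase best known from the stomach, read 8.94, 9.12, 9.23 and 9.21 against 8.25, 8.68, 8.51 and 8.49, without overlap and with a difference of -0.64 (SE 0.09). Pla2g2c, a secreted phospholipase known from rodent testis, read 10.24, 10.70, 10.79 and 11.12 against 9.47, 10.29, 10.39 and 10.28. TgMsi2 array 1 was far below the other 3, which overlapped the wild-type arrays, and the difference of -0.61 (SE 0.22) was not called.

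Defence proteins and secretory proteins of the reproductive tract were 4 higher probes and Defb14, which was lower. Defb36, a beta-defensin, read 12.86, 12.52, 11.87 and 12.59 in Wt(TgMsi2) and 13.47, 13.23, 13.82 and 12.77 in TgMsi2 at probe 1. The groups overlapped, and the difference was 0.86 (SE 0.23) at probe 1, which was called, and 0.74 (SE 0.25) at probe 2, which was not. The call of probe 1 was lost with the line's own 8 arrays (limma adjusted p = 0.0796) and in 5 fits without 1 array, namely TgMsi2 array 1 or 3 or Wt(TgMsi2) array 2, 3 or 4. Svs5, a seminal vesicle secretory protein, read 10.12, 9.24, 9.55 and 9.54 against 10.07, 10.76, 10.14 and 10.32, a difference of 0.70 (SE 0.21). In this gene array 2 was highest and array 1 lowest. Svs5 was the only 1 of 11 accessory gland markers on the array that either table listed. Rnase4, a secreted ribonuclease, differed by 0.64 (SE 0.20) and was not called. Defb14, another beta-defensin, read 9.49, 10.30, 10.46 and 9.35 against 8.83, 9.40, 9.48 and 9.47, an uncalled difference of -0.60 (SE 0.25). Its values also separated the lines, since the 8 arrays of the TgMsi1 line and its littermates ran from 10.58 to 11.28 and those of the TgMsi2 line from 8.83 to 10.46. The wild-type means were 11.04 ± 0.27 in Wt(TgMsi1) and 9.90 ± 0.56 in Wt(TgMsi2) (SD, n = 4 each). Defb14 was singled out for this after its values were seen, and the difference between the littermate groups was not tested.

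Of the remaining members, Endod1, a protein with an endonuclease domain, read 9.11, 9.05, 8.68 and 9.0 in Wt(TgMsi2) and 10.01, 9.57, 10.23 and 9.48 in TgMsi2, a difference of 0.86 (SE 0.16). The clone 4930486L24Rik was near the array median in wild type, at 7.86, 7.79, 7.73 and 7.86, and read 9.14, 8.80, 9.62 and 8.57 in TgMsi2. It was the probe with the largest positive difference, 1.22 (SE 0.17). Itprip, a protein that binds the inositol trisphosphate receptor, differed by -0.75 (SE 0.15) and Ccdc70, a coiled-coil protein, by -0.68 (SE 0.18). The clone 4930503L19Rik differed by -0.96 (SE 0.18). In these 5 genes, which this same comparison chose, the TgMsi2 arrays did not overlap the wild-type arrays, beside 16% of all probes.

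The TgMsi1 table listed 5 members as higher and 3 as lower, with smaller differences, as its lower fold limit allows. Ambp, the precursor of alpha-1-microglobulin and the protease inhibitor bikunin, read 8.16, 8.38, 8.28 and 8.24 in Wt(TgMsi1) and 8.78, 8.72, 8.71 and 8.58 in TgMsi1. The groups were clear of each other, with a difference of 0.43 (SE 0.07). Art5, a secreted ADP-ribosyltransferase known from mouse testis, read 11.44, 11.85, 11.68 and 11.54 against 12.10, 12.33, 11.98 and 11.87, a difference of 0.44 (SE 0.10). Lum (lumican), a collagen-binding proteoglycan, differed by 0.31 (SE 0.10), and TgMsi1 array 3, at 8.93, stood above the other TgMsi1 arrays, which reached 8.49. Cpq, a carboxypeptidase found in plasma, differed by 0.30 (SE 0.10). Pyy, a gut peptide hormone, differed by 0.29 (SE 0.09) near the median of all probes, and was the 1 of the 8 whose groups overlapped, through Wt(TgMsi1) array 2. The lower members were Pon2, a lactonase of the paraoxonase family, Col4a2, a collagen chain of basement membranes (-0.34, SE 0.15), and Ly6k, a surface protein needed for sperm migration in the mouse (-0.27, SE 0.09). In limma 0 of these 8 had an adjusted p under 0.05 in TgMsi1, beside 0.0117% of all probes (3 of 25697). The groups did not overlap in 7 of the 8, beside 4.04% of all probes, and nothing is read from this count. Ly6k (ratio 0.828) and Pyy (1.22) were the listed members nearest the limit in the authors' deposited table. Among members listed for TgMsi2 with a TgMsi1 fold under 1.2, Dcn probe 1 (1.19) and Adam23 (1.18) came nearest to that limit. Other TgMsi2-listed members were past it in TgMsi1 without being listed there. They include Cpa5 (0.627), Gdf9 (0.632) and Npb (0.676), each with an unadjusted limma p under 0.05. The authors' p of unlisted probes is not given, so what kept them out was not examined.

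The TgMsi1 difference took no part in choosing the 49 probes listed for TgMsi2, so these probes were tested on the TgMsi1 arrays. The authors' p-values may rest on a spread pooled over both lines, which was not checked. In that case the choice was not fully independent of the TgMsi1 arrays. None was called in limma: 0 of 49 had an adjusted p under 0.05, where 3 of all 25697 probes had (0.0117%), and the lowest adjusted p was 0.255. With equal replicate numbers fitted as pairs, 2 of the 49 were called (Npb and Gdf9, limma adjusted p 0.0491 and 0.0492), beside 0.0662% of all probes. The labels do not say whether equal numbers mark pairs. Without pairs, 5 of 49 had an unadjusted p under 0.05 in limma, beside 7.32% of all probes. This was 1 of the 36 higher probes (Tgfbi), where 3.19% of all probes were higher at that p, and 4 of the 13 lower ones (Npb, Gdf9, Cpa5 and Loxl1), where 4.12% were lower. Of the 49, the number was 9 without TgMsi1 array 4, beside 7.5% of all probes in that fit, and 9 without Wt(TgMsi1) array 2, beside 7.86%. It was 9 when each line's own 8 arrays were fitted alone, beside 6.97%. In the fit of only probes with a mean log2 above 8 it was 5, beside 9.55%. All 4 TgMsi1 arrays lay beyond all 4 Wt(TgMsi1) arrays in the direction seen in TgMsi2 for 1 of the 36 higher probes (Tgfbi), beside 1.88% of all probes, and for 3 of the 13 lower ones (Npb, Cpa5 and Loxl1), beside 2.16%.

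Tgfbi was the member with the least spread in this comparison. It read 9.84, 9.92, 9.90 and 9.87 in Wt(TgMsi1) and 10.11, 10.26, 10.26 and 10.19 in TgMsi1, so that all 4 transgenic arrays were above wild type, as in the other line. The log2 difference was 0.32 (SE 0.08; limma adjusted p = 0.255), beside 0.67 (SE 0.08) in TgMsi2. Loxl1 read 10.02, 10.07, 10.10 and 10.03 against 9.84, 9.86, 9.67 and 9.74, again without overlap, and differed by -0.28 (SE 0.10; limma adjusted p = 0.529), beside -0.59 (SE 0.10) in TgMsi2. Npb read 9.50, 9.04, 9.45 and 9.48 against 8.95, 8.32, 8.94 and 9.01, a difference of -0.57 (SE 0.14; limma adjusted p = 0.255). Array 2 was the lowest in both groups. Gdf9 read 10.09, 9.67, 10.35 and 10.43 against 9.67, 8.97, 9.71 and 9.53, a difference of -0.66 (SE 0.18; limma adjusted p = 0.297). Its groups overlapped, since Wt(TgMsi1) array 2 was level with TgMsi1 array 1 and below array 3. Cpa5 read 10.48, 10.17, 10.32 and 10.37 against 9.98, 8.87, 10.02 and 9.77. TgMsi1 array 2 lay well below the other 3, and the difference was -0.67 (SE 0.20; limma adjusted p = 0.370). Whether these differences are larger in TgMsi2 than in TgMsi1 was not tested.

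By sign, 48 of the 49 probes (98%) differed from wild type the same way in TgMsi1 as in TgMsi2, the exception being Spink4 (-0.05, SE 0.14). The same was true of 646 of the 700 probes of the whole TgMsi2 table (92.3%) and of 60.3% of all probes. Among the 10831 probes with a mean log2 above 8, which include all 49, it was true of 69%. The comparisons share no arrays. The median TgMsi1 difference of the 36 higher probes was 0.18 and that of the 13 lower ones -0.28, where the whole table had 0.18 and -0.21 and all probes 0.0001. Single arrays moved these values. TgMsi1 array 2 was the furthest of the TgMsi1 arrays in 21 of the 36 higher and 11 of the 13 lower probes. Without it the same sign was seen in 41 of 49 members, 78.3% of the table and 56.8% of all probes, and the medians were 0.10 and -0.16. Without Wt(TgMsi1) array 2 the same sign was seen in 44 of 49 members, 89% of the table and 59% of all probes, and the medians were 0.09 and -0.34. On TgMsi1 array 2 the mean of the listed round spermatid markers was -0.72 relative to Wt(TgMsi1), the lowest of the TgMsi1 arrays, whose highest was -0.01, and its part in the shared sign was not tested. Across probes, the correlation of the differences in TgMsi1 and TgMsi2 was r = 0.12 among the 36 higher probes and 0.77 among the 13 lower ones, beside 0.54 over all 25697 probes. These correlations are descriptions, since the probes of a set were read on the same arrays.

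Relative to Wt(TgMsi1), the mean over the 36 higher probes was 0.24, 0.34, 0.17 and -0.04 on TgMsi1 arrays 1 to 4, and the mean over the 13 lower probes was -0.14, -0.67, -0.16 and -0.25. Spink4, the exception in sign, read 8.29, 8.23, 8.41 and 8.27 in Wt(TgMsi1) and 8.44, 8.06, 8.25 and 8.26 in TgMsi1, and those groups overlapped.

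In the reverse direction, the 8 probes listed for TgMsi1 were tested on the TgMsi2 arrays, with the same limit on independence. Pon2 was the 1 of 8 that was called, where 11.5% of all probes were. In the fit of only probes with a mean log2 above 8, 30.6% of them were called. Pon2 read 11.38, 11.38, 11.20 and 11.75 in Wt(TgMsi2) and 11.02, 10.89, 11.18 and 10.95 in TgMsi2. Pon2 fell by 0.42 on the log2 scale (SE 0.10), to 0.747-fold (limma adjusted p = 0.0144). In TgMsi1 it read 11.03, 11.12, 11.06 and 11.16 against 11.61, 11.37, 11.60 and 11.55 in Wt(TgMsi1), a difference of -0.44 (SE 0.10). In both lines all 4 transgenic arrays lay below all 4 wild-type arrays, though TgMsi2 array 3 was only just below Wt(TgMsi2) array 3. Over the alternatives tried, the adjusted p of Pon2 in TgMsi2 ran from 0.00726 to 0.0681, and the call was lost when the line's own 8 arrays were fitted alone (0.0609) and when both TgMsi2 arrays 1 and 3 were left out (0.0681).

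The other 7 were not called in TgMsi2. At an unadjusted p under 0.05 in limma there were 2 of 8, Pon2 and Cpq, beside 24.5% of all probes. The share was 42.2% in the fit of only probes with a mean log2 above 8. Cpq read 9.0, 8.86, 9.31 and 8.91 in Wt(TgMsi2) and 9.41, 9.04, 9.28 and 9.30 in TgMsi2, with overlapping groups and a difference of 0.24 (SE 0.10; limma adjusted p = 0.145). Without Wt(TgMsi2) array 3, the highest of its group, the difference was 0.33 and passed (limma adjusted p = 0.0332), so that 2 of the 8 were called, beside 7% of all probes in that fit. Of these 8 probes, Pon2 and Cpq came nearest to the TgMsi2 table's limit from outside, with ratios of 0.747 and 1.18; extracellular probes in neither table were not examined. By sign, 7 of 8 differed the same way in both lines. Col4a2 was the exception, at 0.06 (SE 0.15) in TgMsi2.

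Other secreted genes of the testis were looked up by function in the comparison tables, which list only probes past their limits. The TgMsi2 table lists 1.59% of all probes as higher and 1.14% as lower, and in limma 6.2% and 5.32% of all probes were called so. The counts below are of genes, which can have more than 1 probe. Of 26 matrix genes on the array, the TgMsi2 table held Sparc, Dcn and Mgp, all higher and called, and the TgMsi1 table Lum (0.31) and Col4a2 (-0.34), not called. The other collagen chains of that list, the laminins and the nidogens were in neither table. Of 19 genes grouped as protease inhibitors, 5 were higher in TgMsi2 and all were called: the members Serping1, Serpinf1, Timp2 and Wfdc1, and Wfdc10 (0.97 and 0.87 at its probe pair). Of 19 proteases there were Htra1 and Prss35, and of 21 carriers Apoc1, Igfbp7 and Shbg, of which Apoc1 and Igfbp7 were called. Of 27 chemokines and cytokines, Mif, an inflammatory cytokine made by Leydig cells in the rodent, was higher by 0.62 (SE 0.14; limma adjusted p = 0.0115), and Cxcl12 was not called. Of 20 antimicrobial genes the table held Defb36 and Lyz1 (1.05, SE 0.32; limma adjusted p = 0.0504), and of 16 acrosome and sperm matrix genes Mfge8 (0.97 and 0.89 at its probe pair, both called) and Zp3r (-0.67, SE 0.17; limma adjusted p = 0.0242). Of 29 secreted growth factors and hormones such as Gdnf, Kitl and the activins, and of 21 Wnt antagonists and modulators, 0 were in either table. The tables were chosen on the same arrays, so these counts are no independent evidence.

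Some markers of other testis cell types were in the TgMsi2 table too, which lists 1.59% of all probes as higher and 1.14% as lower. In limma 6.2% of all probes were called higher and 5.32% lower. The counts that follow are of genes with at least 1 listed probe, so they are not on the scale of these shares of probes. The listed Sertoli markers include the members Defb36 and Shbg. In that table, Sertoli markers were listed for 6 of 19 genes on the array (5 called), Leydig markers for 6 of 19 (4 called), peritubular myoid markers for 3 of 9 (3 called), macrophage markers for 5 of 18 (5 called) and endothelial markers for 1 of 10 (Robo4), all higher. Round spermatid markers were listed for 4 of 12 (2 called), all lower, elongating spermatid markers for 1 of 13 (Prm3) and spermatogonia and spermatocyte markers for 1 of 14 (Aurkc), also lower. The means that follow use only markers the table listed, and so chose on these arrays; the other markers are not paired with probes of the value table and were not analysed here. Relative to the Wt(TgMsi2) mean, the mean of the listed Sertoli markers that are not members (4 genes) was 0.84, 0.53, 0.82 and 0.31 on TgMsi2 arrays 1 to 4, in the same order of arrays as many secreted genes. The Leydig mean (6 genes) was 1.38, 0.73, 1.07 and 0.45, and the round spermatid mean (4 genes) -1.06, -0.43, -1.07 and -0.39. The macrophage mean (5 genes) was 0.72, 0.98, 0.66 and 0.75, with array 2 highest. On Wt(TgMsi2) arrays the same means ran from -0.13 to 0.14 (Sertoli), -0.42 to 0.39 (Leydig), -0.08 to 0.15 (round spermatid) and -0.17 to 0.11 (macrophage). Of 13 epididymis and 11 blood and plasma markers, 0 were listed, and of 11 fat markers Adipoq was lower (-1.87) and Scd1 was higher without being called (0.83). The part of these cell types in the differences of the secreted genes was not tested.

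The mean of the 3 peritubular myoid markers in the table was 0.92, 0.70, 0.95 and 0.49 on TgMsi2 arrays 1 to 4 relative to Wt(TgMsi2), whose own arrays ran from -0.53 to 0.24. Arrays 1 and 3 were again the highest.

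The annotation in the authors' deposited tables showed what the members shared beyond the term that chose them. The proteinaceous matrix term was carried by 12 of the 57 probes (21.1%), beside 0.8% of the other 875 listed probes, and proteolysis by 9 (15.8%), beside 1.71%. The serine protease inhibition term was carried by 5 probes (8.77%, beside 0.686%), namely Ambp, Serpinf1, Serping1, Spink4 and Wfdc1. The growth factor activity term was carried by 4 (7.02%, beside 0.114%), namely Cxcl12, Gdf9, Nenf and Ogn. A membrane term was less common, with 6 probes (10.5%, beside 24%). These terms overlap in meaning with the extracellular region, and the shares are descriptions.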

How the data were processed

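Total RNA of whole testes was measured on 16 Illumina bead arrays, 4 in each of 4 groups taken from the sample titles. The deposited value table holds log2 signals of 25697 probes, made with GenomeStudio per the submitters' processing notes; the sources used here do not give their normalization or the probes' genome build. The sorted columns differed by at most 0.00601, as after quantile normalization, and values ran from 7.37 to 14.51, so a background left in them makes the fold changes of dim probes smaller. There is no read depth on bead arrays; 4 arrays per group limit the precision. Arrays of 1 group correlated with r of 0.988 to 0.996, and 0 pairs were identical. The authors' deposited tables give an unadjusted p-value, a ratio and a signed fold score per probe, per the file headers. The log2 of each ratio differed from the value table by at most 5.91e-06. The 128 per-array columns of a further, unnormalized table could not be matched to samples by any label and were not used, so detection was not analysed here.

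Each transgenic group was compared with its littermates in limma 3.58.1 under R 4.3.3 (1 mean per group, 1 spread per probe shared by all 16 arrays, eBayes, Benjamini-Hochberg over 25697 probes, threshold 0.05). The fit was tried on simulated arrays with independent noise per probe, so probes did not move together by array. At a log2 change of 0.5 it recovered 56 of 100 changed probes in TgMsi1 and 81 of 100 in TgMsi2. At a log2 change of 1 it recovered 94 and 96 of 100. Both lines were given the same spread per probe and different randomly drawn probes. The gap between them therefore does not measure the sensitivity of the real comparisons. False calls were 7 of 157 in TgMsi1 and 18 of 195 in TgMsi2. "Called" means an adjusted p under 0.05. Members, gene lists and roles were chosen with earlier results of these data known. Named were members with the largest differences per table, direction, list and role, those with the smallest p in the other line, those nearest a table limit and those with a probe pair. Of 57 probes, 54 matched a RefSeq gene by Entrez number, and 5 genes carry updated symbols: Cpq (Pgcp), Selenop (Sepp1), Adam34l (EG384813), Cstdc1 (8030411F24Rik) and Prss54 (4931432M23Rik); Cstdc1 was not among the cystatins left out because the tables list it as a clone. Gene lists were counted over genes in the array design. Upstream windows come from RefSeq; the planned protein features were not used here. Alternatives were variance trend, array weights, each line alone, a mean log2 filter of 8, cyclic loess, a subtracted floor with offset 16, a replicate block and leaving out each array.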

Additional observations from a re-analysis of the deposited data

Results flagged for a closer look

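An array that stood apart from the other 3 of its group was found in 20 of 228 groups of 4 (Dixon's gap test), where chance gives about 1 in 20 groups. On TgMsi2 arrays, array 1 was low for Defb14 (8.83, next 9.40), Gdf9 (8.82, next 9.19) and Pla2g2c (9.47, next 10.28), and array 3 was high for Adam23 (9.34, next 8.87). On TgMsi1 arrays, array 2 was low for Lipf (8.65) and Npb (8.32) and high for Olfml2b (9.78) and Shbg (8.92), array 3 was high for Lum (8.93), and array 4 was low for Defb36 probe 2 (10.52). In Wt(TgMsi1), array 1 was high for Pros1 (10.32) and Endod1 (9.32), array 2 was high for Pyy (8.22) and low for Npb (9.04) and Igfbp7 (11.86), array 3 was high for Defb36 probe 2 (11.27), and array 4 was low for Cxcl12 (9.0). In Wt(TgMsi2), array 3 was low for Cxcl12 (8.45, next 9.24) and Ogn (8.51, next 9.39), and array 2 was high for Lum (8.44). Cxcl12 and Ogn are among the members listed for TgMsi2 that were not called there.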

How the results depend on the processing

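The sign of every member difference tested in the other line was kept under the variance trend, each line alone, the mean filter, cyclic loess, the subtracted floor, the replicate block and without both TgMsi2 arrays 1 and 3, and array weights turned only Pros1 in TgMsi1 (-0.0032). The mean filter left 7 of the 8 probes listed for TgMsi1, without Pyy.

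Of the 49 probes listed for TgMsi2, the number called in TgMsi1 was 0 under each alternative but the replicate block, where it was 2 (Npb and Gdf9, limma adjusted p 0.0491 and 0.0492, over all alternatives 0.0491 to 0.53 and 0.0492 to 0.6). The labels do not say whether equal replicate numbers mark paired arrays. Deviations of arrays with equal numbers correlated with r from 0.02 to 0.44 in the TgMsi1 line. In the TgMsi2 line r ran from -0.29 to 0.34, and these values cannot decide it. Under the block, 13 of the 49 had an unadjusted p under 0.05 in TgMsi1, beside 8.58% of all probes, and 17 of all probes were called there. The 49 gave 9 at an unadjusted p under 0.05 with each line alone, beside 6.97%, and 8 without both TgMsi2 arrays 1 and 3, beside 7.66%. Of the 8 probes listed for TgMsi1, 0 were called in TgMsi2 with each line alone and 0 without both arrays, and in TgMsi1 itself 1 was called with the variance trend and 1 without both arrays. All probes called in TgMsi1 numbered 7 with the variance trend, 5 with array weights, 0 with each line alone, 8 with the mean filter and 9 without both arrays. Without both arrays, 8 of the 49 and 201 of all probes were called in TgMsi2. The causes were not tested.

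With single arrays left out, the ranges were 0 to 0 (the 49 called in TgMsi1), 5 to 9 (unadjusted), 41 to 48 (same sign), 28 to 43 (called in TgMsi2), 1 to 2 (the 8 called in TgMsi2), 1 to 4 (unadjusted), 0 to 1 (called in TgMsi1), 0 to 30 (all probes in TgMsi1) and 1305 to 3530 (all probes in TgMsi2). With single arrays left out, these differences crossed 0, none of them called in the full set: in TgMsi1 Pcolce -0.0042 to 0.1577, Selenop probe 2 -0.0707 to 0.0829, 4930486L24Rik -0.0105 to 0.1830, Pros1 -0.0231 to 0.1454, Adam34l -0.0998 to 0.0748, Sparc probe 1 -0.0004 to 0.3779, Prelp -0.0313 to 0.2357, Spink4 -0.1091 to 0.0162, Defb36 probe 1 -0.0163 to 0.2536, Prss54 -0.1645 to 0.0077, Shbg -0.0200 to 0.0904, Mgp -0.0824 to 0.2408, Selenop probe 1 -0.0163 to 0.2830, Sparc probe 2 -0.0490 to 0.1847, and in TgMsi2 Col4a2 -0.0561 to 0.1932.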
